A study of Mus musculus with 16 samples.

Results

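Brain RNA of mice labelled TNF knockout was compared with that of C57BL/6 mice 24 h after permanent middle cerebral artery occlusion, a model of ischaemic stroke in which a main artery of the brain is closed and stays closed. The comparison used the 4 arrays whose titles give TNF knockout and 24 h and the 4 arrays whose titles give C57BL/6 and 24 h, which are 8 of the 16 arrays in the study. All 19938 genes with a probe set of their own entered it. The mice were males of 8 weeks, and each array held RNA of whole brain, so the infarct, the tissue around it and the undamaged hemisphere were measured together. The other 8 arrays came from naive mice of the same labels, 4 of each, which had neither an occlusion nor a sham operation. The labels name neither the allele of the TNF knockout mice, the part of the gene removed, nor the strain on which it was kept, and they do not say whether each array held RNA of a separate animal. If it did not, the p-values below measure a spread that may be partly technical.

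Values are log2 intensities of probe sets on the Affymetrix Mouse Gene 1.0 ST array, so 1 unit is a doubling, and the values of different probe sets cannot be ranked as amounts of RNA. Arrays are numbered by the replicate numbers in their titles. Differences are arrays labelled TNF knockout minus C57BL/6, given with the standard error (SE) from a limma model of all 16 arrays. A gene passed the test where its limma p-value was under 0.05 after Benjamini-Hochberg adjustment over all 19938 genes. The 8 compared arrays had medians between 6.01 and 6.05, and correlations between arrays of a group were 0.9911 to 0.9962. Every sample name of the C57BL/6 arrays began with KL42. After stroke the names of the arrays labelled TNF knockout began with KL76 (array 1) or KL82 (arrays 2 to 4). In naive brain KL76 named 3 arrays labelled TNF knockout and KL82 named 1, so the mix of prefixes differed between the conditions. The labels do not say what the prefix stands for, and prefix and genotype label cannot be told apart.

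Tumour necrosis factor (TNF) is a cytokine that microglia and invading myeloid cells release after ischaemia. It is made as a membrane protein, is cut free by the protease ADAM17, and binds the receptors TNFR1 and TNFR2. Through adaptor proteins these receptors switch on the transcription factor NF-kB, whose targets include chemokines, adhesion molecules and its own inhibitors, and TNFR1 can also start cell death.

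The targeted gene itself was higher, not lower, in the arrays labelled TNF knockout. Tnf read 5.64, 5.28, 5.67 and 5.68 in the C57BL/6 arrays after stroke and 6.75, 6.60, 6.99 and 6.88 in the arrays labelled TNF knockout. No array of one group reached the other. The difference was 1.24 ± 0.14 (SE, n = 4 and 4), which is 2.36-fold, with a limma adjusted p of 0.0001. The difference was 1.11 ± 0.14 in naive brain, and the stroke changes under the 2 labels differed by 0.13 ± 0.20 (limma adjusted p = 0.90). A probe set outside the removed part of the gene would not check the label, and the part it reads was not examined here. Set against array 1 (KL76) alone, the difference in Tnf was 1.18 with an adjusted p of 0.10.

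After stroke 87 genes passed the test, which is 0.436% of those tested. Of these, 33 (0.166%) were higher and 54 (0.271%) lower in the arrays labelled TNF knockout. In each direction 4 genes differed by at least 2-fold, and the median absolute difference of the 87 genes was 0.53. The values of the groups did not overlap for 83 of them, against 1157 genes, or 5.80%, of all genes tested. The 87 genes were called on these same values, so their high share is no support. The median difference over all genes was -0.008. Many calls depended on single arrays. When each of the 8 arrays was left out in turn, 37 of the 87 genes passed in every fit, 14 passed in 5 to 7 fits, 35 in 1 to 4 and 1 (Lynx1) in none, while none changed direction. The count fell to 47 without C57BL/6 array 4, to 57 without array 1 and 54 without array 4 labelled TNF knockout.

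**Figure D1:**
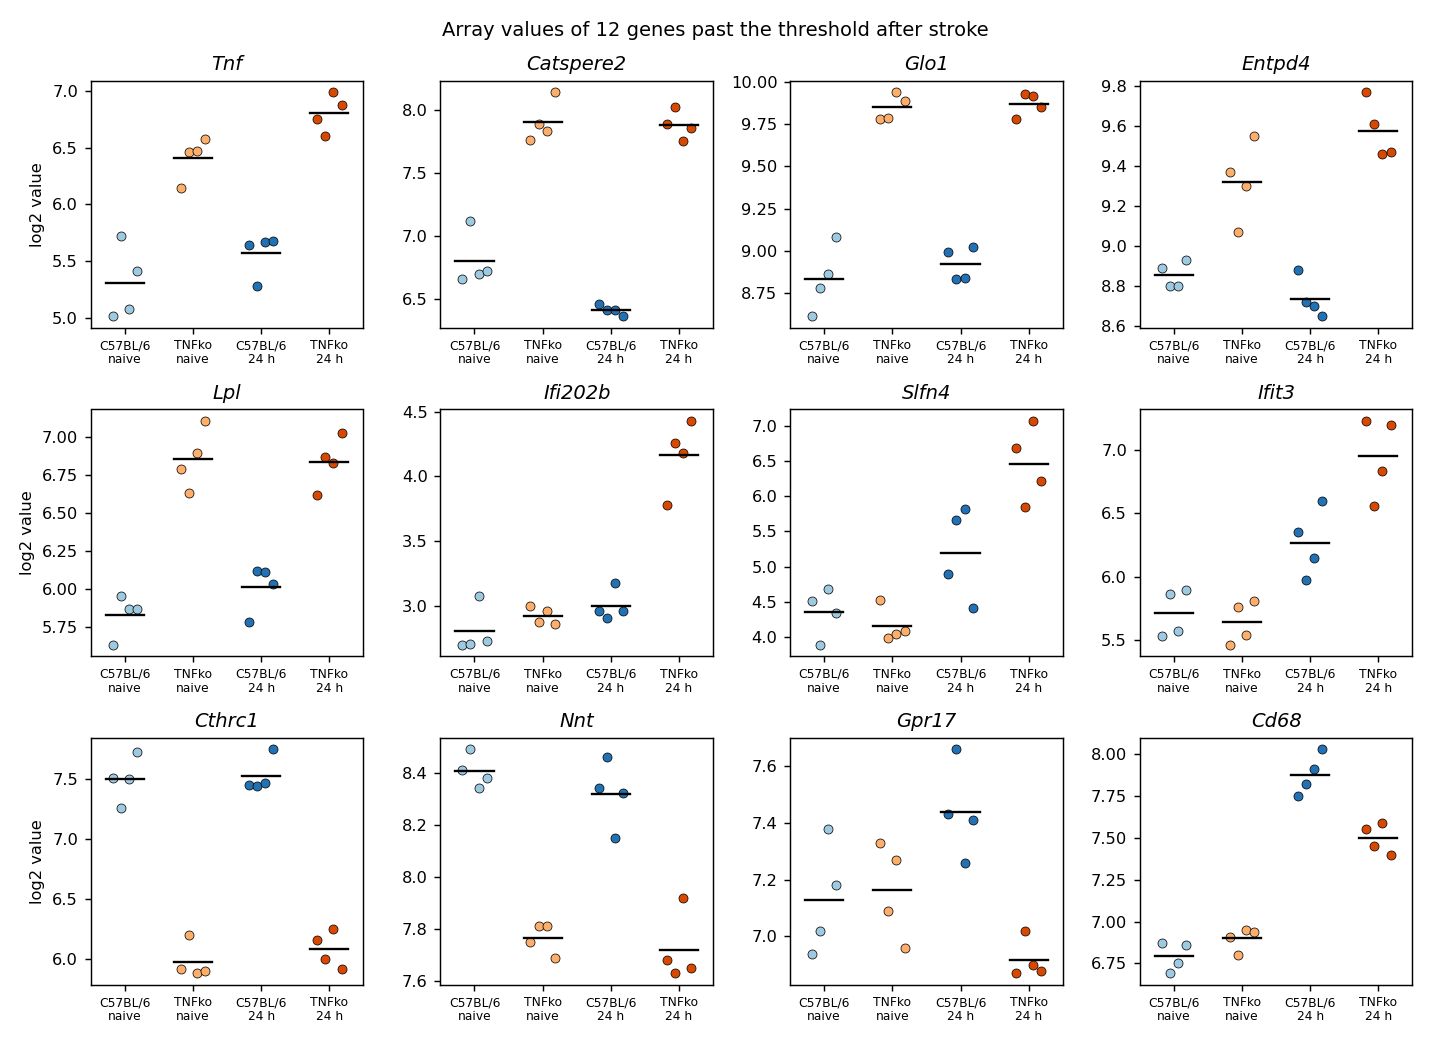
Log2 values of 12 genes that passed the test after stroke, 1 panel per gene, with 1 point per array and a bar at the mean of each group of 4 (C57BL/6 naive, TNF knockout label naive, C57BL/6 24 h after stroke, TNF knockout label 24 h after stroke); the vertical axes differ and do not start at 0. Tnf, Catspere2, Glo1, Entpd4, Lpl, Cthrc1 and Nnt were already apart in naive brain, whereas Ifi202b, Slfn4, Gpr17 and Cd68 were apart after stroke and the groups of Ifit3 overlapped.

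Most of the 87 differences had the same direction in naive brain, which was measured on other arrays. The sign was shared by 80 of 87 genes, or 92.0%, against 59.0% of all genes. In naive brain 77 genes (0.386%) passed the test. The 25 genes that passed in both conditions, all in the same direction, made up 28.7% of the stroke calls and 32.5% of the naive calls. For 55 of the 87 genes the naive difference was at least 0.5 times the difference after stroke. The direct test of whether the stroke change differed between labels passed for 0 of 19938 genes in limma, with a smallest adjusted p of 0.081, although 1480 genes (7.42%) had an unadjusted p under 0.05. Of the 87 genes, 32 were among those 1480. The 87 were chosen on the stroke arrays, which enter this test too, so a raised share among them is no support. Genes that passed after stroke and not in naive brain were therefore not shown to differ between the conditions.

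**Figure D2:**
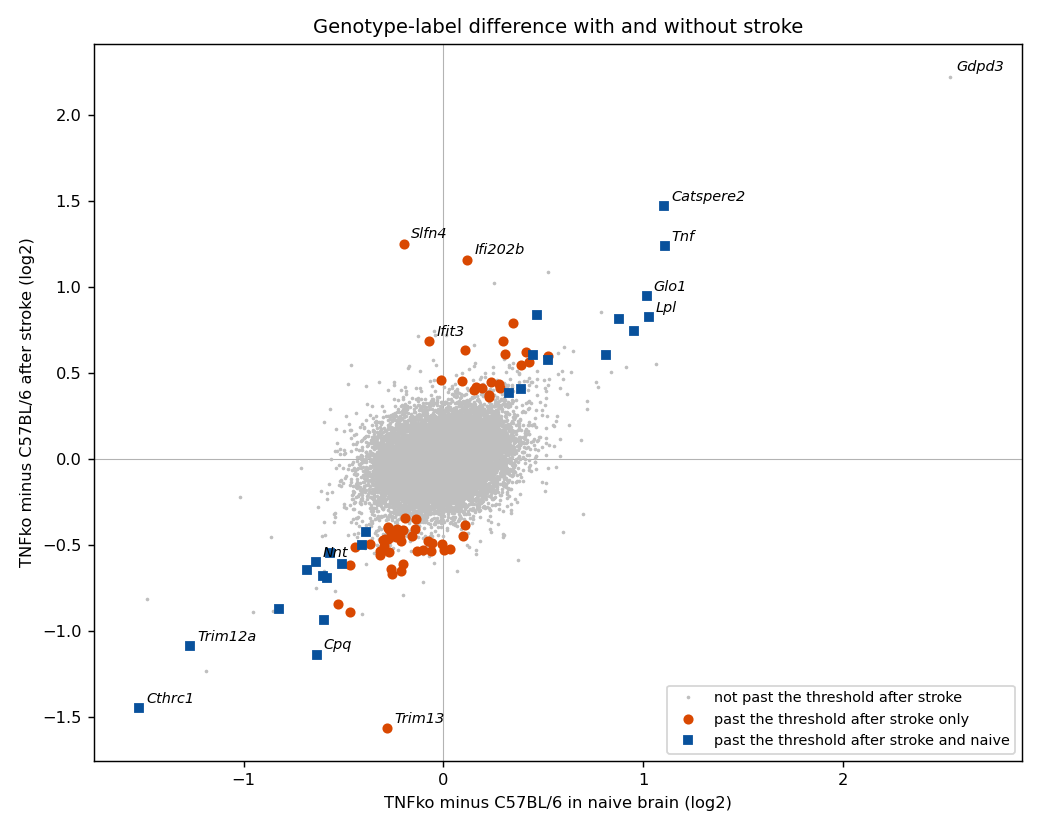
Difference between the labels (TNF knockout minus C57BL/6, log2) in naive brain on the horizontal axis and after stroke on the vertical axis, 1 point per gene for 19938 genes. Blue squares are the 25 genes that passed in both conditions, orange circles those that passed after stroke alone, and grey points the rest. Most marked genes lie in the quadrants of shared direction, and Slfn4, Ifi202b and Ifit3 lie near 0 on the naive axis.

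Among the called genes, the largest increase was in Catspere2, which encodes a protein of the CatSper calcium channel complex of sperm. It read 6.46, 6.41, 6.41 and 6.36 in C57BL/6 brain and 7.89, 8.02, 7.75 and 7.86 in the arrays labelled TNF knockout. The groups were far apart, by 1.47 ± 0.10 (limma adjusted p = 1.4e-07), and the naive difference was 1.10. Glo1, the glyoxalase that detoxifies methylglyoxal, read 8.99, 8.83, 8.84 and 9.02 against 9.78, 9.93, 9.92 and 9.85. Its difference of 0.95 ± 0.09 (limma adjusted p = 1.2e-05) was close to the naive value of 1.02. Lpl, the lipase that releases fatty acids from lipoproteins and is made by microglia as well as neurons, read 5.78, 6.12, 6.11 and 6.03 against 6.62, 6.87, 6.83 and 7.03. The groups did not overlap, and Lpl differed by 0.83 ± 0.11 after stroke and by 1.03 in naive brain. Entpd4, a nucleotide phosphatase of the Golgi and lysosomes, differed by 0.84 ± 0.10 and read 8.65 to 8.88 in C57BL/6 brain against 9.46 to 9.77. Abhd1 (0.82), Amy1, which encodes salivary amylase (0.63), Ddo, the D-aspartate oxidase (0.61), the adhesion molecule gene Sdk2 (0.61) and the small nucleolar RNA gene Snora21 (0.64) completed the largest increases outside the groups described below. Abhd1, Ddo, Glo1, Lpl, Entpd4 and Catspere2 also passed in naive brain. Sdk2 no longer passed without C57BL/6 array 3 or 4 or without array 1 or 2 labelled TNF knockout, with adjusted p up to 0.10, and Snora21 passed in a single one of the 8 fits, that without C57BL/6 array 2.

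Among the decreases, Cthrc1, a secreted protein induced in injured arteries and matrix, read 7.45, 7.44, 7.47 and 7.75 in C57BL/6 brain and 6.16, 6.00, 6.25 and 5.92 in the arrays labelled TNF knockout. The groups were far apart (-1.44 ± 0.11, limma adjusted p = 2.7e-07), and the naive difference was -1.52. Cpq, a plasma peptidase that cuts dipeptides, read 8.08, 8.06, 7.98 and 8.48 against 6.77, 6.92, 7.14 and 7.23, a difference of -1.14 ± 0.13. Myl4, a myosin light chain of atrial and embryonic muscle, differed by -0.93 ± 0.11. Snapc1, a subunit of a complex needed to transcribe small nuclear RNA genes, differed by -0.88 ± 0.14. The antioxidant enzyme gene Pon2 differed by -0.67 ± 0.10 after stroke and by -0.26 in naive brain, and Ccdc124 by -0.64 and -0.68. Ccdc124 passed in 2 of the 8 fits, without C57BL/6 array 3 or without array 1 labelled TNF knockout. Trim13, a ubiquitin ligase gene singled out here after its values were seen, had the lowest difference of all called genes, -1.56 ± 0.28. It read 5.06, 5.22 and 5.64 in arrays 1, 3 and 4 labelled TNF knockout and 6.94 in array 2, which lay within the C57BL/6 range of 6.91 to 7.78. It did not pass without C57BL/6 array 4 (adjusted p = 0.061).

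Some genes with large differences did not pass because arrays of a group disagreed. Gdpd3, a phosphodiesterase gene chosen after its values were seen, read 4.16 to 4.70 in C57BL/6 brain after stroke and 4.43, 7.10, 7.61 and 7.60 in the arrays labelled TNF knockout. Its difference was 2.22 ± 0.62 (limma adjusted p = 0.14). The naive arrays labelled TNF knockout had the same shape, with 4.50 in array 1 and 7.87, 7.51 and 7.50 in the others.

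Genes that are known to differ between inbred mouse strains were over the threshold in both directions. Of 13 such genes tested, 3 rose (Glo1, Entpd4 and Ifi202b) and 3 fell (Nnt, Wdfy1 and Trim12a), against 0.436% of all genes in either direction, and the median of the 13 differences was 0.11. The members were listed with earlier results of these arrays known, so the count is a description. Nnt, the mitochondrial transhydrogenase that feeds NADPH to antioxidant enzymes and is disrupted in the C57BL/6J substrain, read 8.34, 8.46, 8.15 and 8.32 in C57BL/6 brain and 7.68, 7.63, 7.92 and 7.65 in the arrays labelled TNF knockout. It was lower after stroke (-0.60 ± 0.08, limma adjusted p = 0.0011) and in naive brain (-0.64). Wdfy1, an endosomal adaptor gene, differed by -0.61 ± 0.10 after stroke and by -0.47 in naive brain. Trim12a differed by -1.09 ± 0.22 and by -1.27. Its groups overlapped after stroke, with 3.93, 4.32, 4.65 and 4.37 against 3.99, 2.82, 3.41 and 2.70, and it passed in 3 of the 8 fits with 1 array left out, without C57BL/6 array 1 or without array 1 or 3 labelled TNF knockout. Strain background and the genotype label cannot be told apart in this design.

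Several called genes lay near one another, with at most 30 tested genes between neighbours in the gene order of the RefSeq annotation of GRCm38.p6. Over all tested genes 0.436% were called. Chromosome 17, which carries Tnf, held 14 called genes among 940 tested, or 1.49%, chromosome 15 held 9 of 752 (1.20%) and chromosome 12 held 7 of 653 (1.07%). Among the 200 tested genes nearest to Tnf, 100 on each side, 1 was called (Gtf2h4, -0.49 ± 0.09), and 0 passed in naive brain. Of 42 tested genes of the class III region of the major histocompatibility complex around Tnf, 1 fell (Gtf2h4) and 0 rose, with a median of -0.05. Sets of these sizes can hold 0 or 1 call at the share over all genes, which was 0.436% after stroke and 0.386% in naive brain. The counts therefore show neither a surplus nor a lack of calls near Tnf. The lymphotoxin genes beside Tnf differed by 0.23 (Lta, adjusted p = 0.44) and -0.12 (Ltb, adjusted p = 0.63). Gtf2h4, a subunit of the transcription and repair factor TFIIH, did not pass without C57BL/6 array 4 or without array 1, 3 or 4 labelled TNF knockout (adjusted p up to 0.076).

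The longest run lay on chromosome 15, where 8 of 68 consecutive tested genes were called. Atpsckmt (-0.84), Cpq (-1.14), Cox6c (-0.34), Spag1 (-0.46), Baalc (-0.68), Fzd6 (-0.61) and Cthrc1 (-1.44) were lower, and A930017M01Rik was higher (0.58). Baalc, a brain protein also known from acute leukaemia, read 7.42, 7.63, 7.77 and 7.70 against 6.81, 6.95, 7.10 and 6.96. Fzd6 encodes a Wnt receptor and read 6.67 to 7.08 against 6.07 to 6.38. Neither gene's groups overlapped. The median of all 68 genes was -0.05. Of them 13 were lower and 2 were higher without overlap between the groups. Over all tested genes 2.76% were lower and 3.04% higher in that way. The span was drawn to begin and end at called genes, and its 8 called genes are among those without overlap. The counts therefore describe the span and do not test it. Cox6c and Spag1 each passed in 1 of the 8 fits, without C57BL/6 array 2 and without C57BL/6 array 1. On chromosome 1, Bpnt1 (-0.69), Tatdn3 (-0.50) and Ints7 (-0.56) fell and Flvcr1 (0.57), a haem exporter gene, rose within 33 tested genes. A zinc finger cluster on chromosome 17 held Zfp983 (0.60) and, in the other direction, Zfp52 (-0.49) and Zfp40 (-0.61). Zfp40 passed in 2 of the 8 fits, without C57BL/6 array 1 or without array 4 labelled TNF knockout. Elsewhere on chromosome 17, the gene model C030034I22Rik (-0.87), Dpy30 (-0.54), a subunit of histone methyltransferase complexes, Ttc27 (-0.40) and the gene model Gm6548 (-0.52) all fell within 43 tested genes. Of these, Dpy30 was lost without C57BL/6 array 4 (adjusted p = 0.058), Ttc27 passed without C57BL/6 array 1 or 3 only, and Gm6548 passed without C57BL/6 array 1 only. A span of 44 tested genes on chromosome 1 held Ifi202b (1.16) and Catspere2 (1.47), which rose, and Ackr1 (-0.40), an atypical chemokine receptor, and the olfactory receptor gene Olfr231 (-0.44), which fell. Ackr1 passed in 2 of the 8 fits, without C57BL/6 array 1 or 4, and Olfr231 in 3, without C57BL/6 array 1 or 2 or without array 4 labelled TNF knockout.

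Other called genes had a single called neighbour or a pair of them. How often a called gene would have such a neighbour by chance was not tested, so these are given as positions only. Near genes that rose, Cbs (-0.50), a cystathionine synthase gene close to Glo1, Atraid (-0.55) close to Abhd1 and Ostm1 (-0.45) close to Ddo fell. Near genes that fell, Ica1 (-0.47) close to Pon2 fell too, whereas Ece2 (0.45) close to Cldn5 and Lrrc9 (0.44) and Fut8 (0.36), on either side of Snapc1, rose. Ostm1 passed in a single one of the 8 fits, that without C57BL/6 array 1, Fut8 in that without C57BL/6 array 2, and Lrrc9 in 2, without C57BL/6 array 1 or without array 3 labelled TNF knockout. Ica1 was lost without C57BL/6 array 4 or without array 1 or 4 labelled TNF knockout (adjusted p up to 0.082).

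The called genes of chromosome 12 included 3 miRNA genes and a small RNA gene of the imprinted Dlk1-Dio3 domain. In this domain the maternal chromosome expresses the long RNAs Meg3 and Rian together with one of the largest miRNA clusters of the mouse genome, which is active in neurons. The mature sequences of both arms of the called miRNA genes are given from RefSeq (GRCm38.p6, chromosome 12, plus strand) because they show that these neighbours do not share a seed. All 3 genes were matched by symbol, and capitals mark the seed, bases 2 to 8.
mmu-miR-323-5p (chr12:109712523-109712544): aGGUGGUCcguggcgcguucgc
mmu-miR-323-3p (chr12:109712558-109712578): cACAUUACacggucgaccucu
mmu-miR-679-5p (chr12:109715587-109715608): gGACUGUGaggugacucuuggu
mmu-miR-679-3p (chr12:109715624-109715645): aGCAAGGUccuccucacaguag
mmu-miR-377-5p (chr12:109740515-109740536): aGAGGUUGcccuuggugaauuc
mmu-miR-377-3p (chr12:109740553-109740574): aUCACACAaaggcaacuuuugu

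Each array value is that of the probe set named for the miRNA gene, not of either arm. Mir323 read 5.66, 5.85, 5.67 and 5.39 in C57BL/6 brain and 6.39, 6.52, 6.35 and 6.48 in the arrays labelled TNF knockout, a difference of 0.79 ± 0.12 (limma adjusted p = 0.0025). Mir377 read 5.67, 6.17, 5.84 and 5.66 against 6.69, 6.51, 6.63 and 6.50, a difference of 0.75 ± 0.11 (limma adjusted p = 0.0019). Mir679 read 8.00, 7.99, 7.78 and 7.42 against 8.69, 8.51, 8.36 and 8.39, a difference of 0.69 ± 0.14 (limma adjusted p = 0.030). The groups did not overlap for any of the 3 genes, and Mir377 also passed in naive brain, where it differed by 0.95. The neighbouring small RNA gene DQ267101 was higher by 0.60 ± 0.12. From Dlk1 to Dio3, 48 genes were tested, of which 4 rose and 0 fell, and 46 differences lay above 0. Their median was 0.37, against -0.008 for all genes, and 0.26 in naive brain. The groups did not overlap for 19 of them, all higher, where 3.04% of all genes did so. The domain was chosen with results of these arrays known, and its 4 called genes are among the 19. Genes of 1 cluster also need not vary independently. The counts therefore describe the domain and do not test it. Meg3 read 11.66, 11.98, 11.99 and 11.77 against 12.27, 12.24, 12.21 and 12.28 and did not pass (0.40 ± 0.10, adjusted p = 0.087). Rian differed by 0.63 (adjusted p = 0.12), and Dlk1 and Dio3, the protein genes at the ends, by 0.18 and -0.05. Mir679 passed in 3 of the 8 fits, without C57BL/6 array 1 or 2 or without array 3 labelled TNF knockout, and DQ267101 was lost without C57BL/6 array 1 or 4 or without array 1 or 4 labelled TNF knockout.

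**Figure D3:**
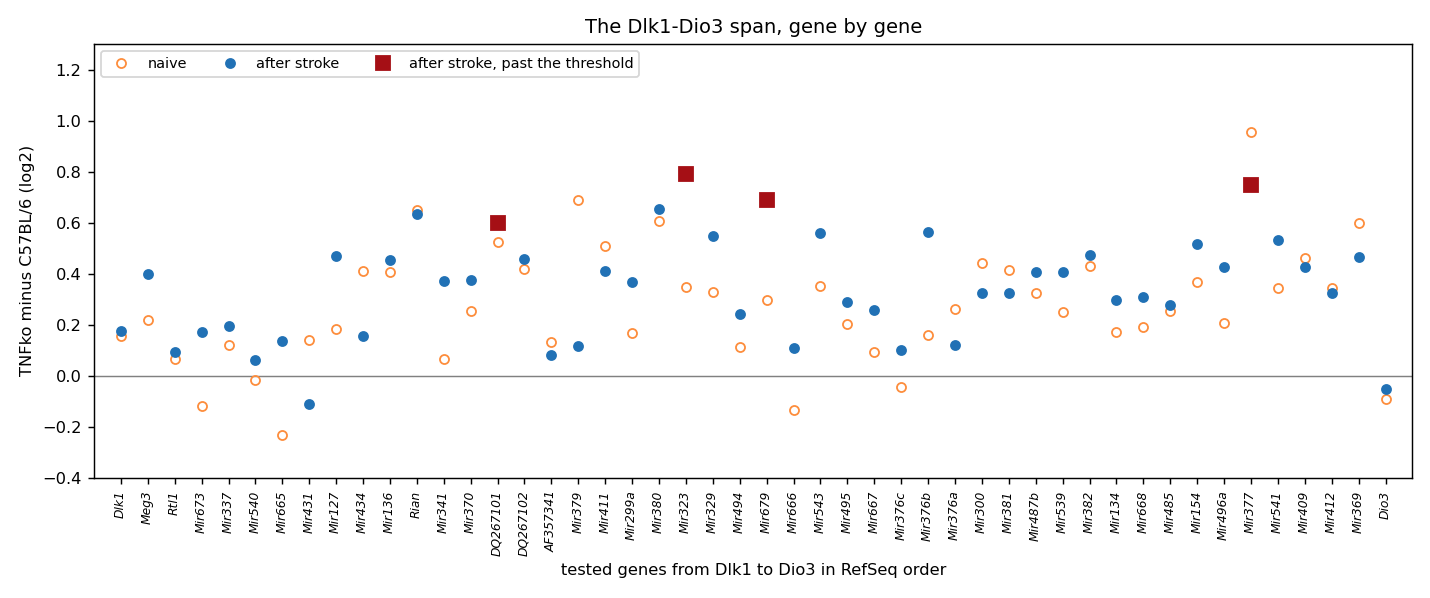
Difference between the labels (TNF knockout minus C57BL/6, log2) for the 48 tested genes from Dlk1 to Dio3 in RefSeq order; filled blue points are after stroke, open orange points are naive brain and red squares mark the 4 genes that passed after stroke. After stroke 46 of the 48 points lie above 0, with Mir323 highest at 0.79.

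Outside Tnf itself, no tested gene of the TNF pathway passed, where 0.436% of all genes did. At that share lists of this length can hold 0 calls, so the counts do not show that the pathway was unchanged. Of 21 tested ligands, receptors and adaptors, 1 rose (Tnf) and 0 fell, and the median difference was -0.04. Tnfrsf1a, which encodes TNFR1, read 7.17, 7.25, 7.29 and 6.97 against 7.08, 7.18, 7.09 and 7.17, so its groups lay on top of each other (-0.04, 95% interval -0.26 to 0.18). Tnfrsf1b, which encodes TNFR2, read 5.61, 5.96, 6.04 and 5.68 against 5.71, 5.23, 5.67 and 5.57 (-0.28 ± 0.11, adjusted p = 0.33). The adaptor gene Tradd differed by -0.26, Casp8, which encodes the initiator caspase of TNFR1, by -0.25 and Adam17 by -0.10, none of which passed. None of the 20 tested NF-kB subunits, inhibitors and targets passed, with a median of 0.04 and the smallest p for Tnfaip2 (0.28 ± 0.10, adjusted p = 0.28).

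Cytokines and chemokines varied widely within each group. Of 15 CC chemokines and receptors 0 passed, where 0.436% of all genes did, with a median of 0.08. Lists this short can hold 0 calls at that share. Ccl3, a chemokine of activated microglia, read 7.09, 7.96, 8.71 and 7.55 in C57BL/6 brain and 9.50, 7.69, 9.11 and 9.10 in the arrays labelled TNF knockout. Its difference of 1.02 ± 0.31 did not pass (adjusted p = 0.19), and array 2 labelled TNF knockout lay among the C57BL/6 values. Without that array, which was picked for its values, Ccl3 differed by 1.41 (limma adjusted p = 0.014), and 2 of the 15 CC genes passed. Over the 8 fits with 1 array left out, 0 to 2 of the CC genes passed. Ccl12, a ligand of CCR2 on monocytes, had means of 8.03 and 8.00. Of 15 CXC and CX3C chemokines and receptors 0 passed (median -0.05), and Cxcl10, an interferon-induced T cell attractant, differed by 0.75 ± 0.28 (adjusted p = 0.30). Of 28 interleukins and their receptors 0 passed (median 0.06), and Il6 differed by 0.41 ± 0.17 (adjusted p = 0.36).

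Most interferon-stimulated genes lay above 0, and 2 of them passed. Type I interferon switches on these antiviral genes through a promoter motif called the ISRE, and Stat2 encodes a transcription factor of that pathway. Of 34 tested genes 2 rose (Ifit3 and Stat2), where 0.166% of all genes rose, and 0 fell. Their median was 0.17, against -0.10 in naive brain and -0.008 for all genes after stroke, and 29 of 34 lay above 0. With the 3 KL82 arrays alone as the TNF knockout label, 0 of the 34 passed and the median was 0.14. Stat2 read 7.12, 7.13, 7.38 and 7.10 in C57BL/6 brain and 7.56, 7.47, 7.62 and 7.70 in the arrays labelled TNF knockout, which did not overlap (0.41 ± 0.08, limma adjusted p = 0.024). Ifit3, which binds viral RNA with its relatives, read 6.35, 5.97, 6.15 and 6.60 against 7.23, 6.56, 6.83 and 7.20. Array 2 labelled TNF knockout lay just under the highest C57BL/6 array, and the difference was 0.69 ± 0.15 (limma adjusted p = 0.042).

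Array 2 labelled TNF knockout was low for the list as a whole. The mean of the 34 genes was 5.97, 5.81, 5.93 and 5.91 in the C57BL/6 arrays and 6.18, 5.81, 6.15 and 6.29 in the arrays labelled TNF knockout. Rsad2, the antiviral enzyme viperin, read 6.04, 5.71, 5.67 and 5.67 against 7.23, 5.64, 6.42 and 6.66 (0.71 ± 0.24, adjusted p = 0.22). Irf7, the factor that amplifies interferon production, read 5.94, 6.09, 6.09 and 5.85 against 6.75, 6.10, 6.59 and 6.73 (0.55 ± 0.13, adjusted p = 0.067) and was -0.46 apart in naive brain. Bst2, an antiviral membrane protein, had the lowest difference of the list, -0.51 ± 0.12 (adjusted p = 0.072). Over the 8 fits with 1 array left out, 0 to 6 of the 34 genes rose and 0 to 1 fell. The count of 6 came without array 2 labelled TNF knockout, which was singled out for its low values in this list. Stat2 and Ifit3 each passed in 2 of the 8 fits: Stat2 without C57BL/6 array 3 or without array 2 labelled TNF knockout, and Ifit3 without C57BL/6 array 4 or without array 2 labelled TNF knockout. Elsewhere their adjusted p reached 0.11 and 0.19.

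Single members of other interferon-inducible families showed larger differences. Of the Schlafen family, regulators of immune cell growth, 1 of 9 tested genes rose, where 0.166% of all genes did. Slfn4, a myeloid gene, read 4.90, 5.66, 5.82 and 4.42 against 6.68, 5.84, 7.07 and 6.22, which came within 0.02 of each other without overlapping (1.25 ± 0.27, limma adjusted p = 0.041). It passed in 3 of the 8 fits, without C57BL/6 array 2 or 3 or without array 2 labelled TNF knockout, with adjusted p up to 0.16 in the others. Of 7 tested genes of the Ifi200 family on chromosome 1, which bind DNA, 1 rose, beside 0.166% of all genes. Ifi202b read 2.96, 2.91, 3.18 and 2.96 in C57BL/6 brain, near the low end of the array's scale, and 3.78, 4.26, 4.18 and 4.43 in the arrays labelled TNF knockout (1.16 ± 0.12, limma adjusted p = 2.1e-05). Ifi202b differed by 0.12 in naive brain, and the difference of its stroke changes, 1.04 ± 0.16, had the smallest adjusted p of that test, 0.081. Its neighbour in the family Ifi205 differed by 0.30 (adjusted p = 0.40). Cd274, which encodes the checkpoint ligand PD-L1 and was picked after its values were seen, read 5.46, 5.27, 5.56 and 5.27 against 6.04, 5.55, 5.81 and 6.00. The groups overlapped by 0.01, and Cd274 (0.46 ± 0.10, limma adjusted p = 0.046) passed in 2 of the 8 fits, without C57BL/6 array 3 or without array 2 labelled TNF knockout.

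The promoters of these genes were read from RefSeq windows of 250 bases before to 50 bases after the annotated start (GRCm38.p6). The ISRE was searched on both strands as GAAA, any pair of bases and GAAA again, and 3.44% of all 32851 promoter windows held it. Of the 28 windows found for 24 of the 34 interferon-stimulated genes 15 held it (53.6%), and of the 33 windows found for 23 of the 33 genes that rose 2 held it, those of Ifit3 and Stat2. In the 250 bases before the start, the search found 2 matches for Ifit3 and 1 for Stat2. The first bases of these matches lie 156 and 122 bases before the start of Ifit3 and 222 bases before that of Stat2. The stretches that hold them are shown beside that of Slfn4, which rose as well and whose window held no match, with capitals for the matches, which read as the ISRE on the opposite strand.
Ifit3 (chr19:34583335-34583454, plus strand): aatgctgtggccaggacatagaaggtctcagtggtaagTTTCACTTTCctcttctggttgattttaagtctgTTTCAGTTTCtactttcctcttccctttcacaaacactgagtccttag
Stat2 (chr10:128270248-128270367, plus strand): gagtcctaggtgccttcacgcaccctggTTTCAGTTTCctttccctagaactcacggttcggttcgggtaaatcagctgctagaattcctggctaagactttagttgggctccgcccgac
Slfn4 (chr11:83175066-83175185, plus strand): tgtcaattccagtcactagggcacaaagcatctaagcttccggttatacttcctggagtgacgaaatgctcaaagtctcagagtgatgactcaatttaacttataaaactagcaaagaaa

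The windows of Ifi202b, Cd274, Irf7 and Tnf held no ISRE match either. A match is a string of letters and not a site shown to be bound.

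All 13 tested markers of oligodendrocytes, the cells that make myelin, lay below 0 after stroke. Of them 2 fell, where 0.271% of all genes did. Their median was -0.34 after stroke and -0.24 in naive brain. With the 3 KL82 arrays alone as the TNF knockout label, 0 of the 13 passed and the median was -0.26. Cnp, an enzyme of myelin membranes, read 11.31, 11.18, 11.24 and 11.38 in C57BL/6 brain and 10.75, 10.90, 10.83 and 10.79 in the arrays labelled TNF knockout, well apart (-0.46 ± 0.08, limma adjusted p = 0.0050). Mal, a proteolipid of compact myelin, read 10.11, 10.06, 10.07 and 10.23 against 9.34, 9.67, 9.75 and 9.58 (-0.53 ± 0.10, limma adjusted p = 0.015). The groups did not overlap for 6 of the 13 markers, where 2.76% of all genes were lower without overlap. Cldn11, the tight junction protein of myelin, differed by -0.43 (adjusted p = 0.088) and Mbp, the myelin basic protein, by -0.29 (adjusted p = 0.10). In bulk RNA, fewer cells of a type and less RNA per cell cannot be told apart.

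Some genes of earlier stages of this lineage fell as well. Of 9 markers of oligodendrocyte precursors 2 fell, where 0.271% of all genes did, with a median of -0.15 (0.07 in naive brain). With the KL82 arrays alone as the TNF knockout label, 0 of the 9 passed and the median was -0.18. Gpr17, a receptor of cells about to become oligodendrocytes, read 7.43, 7.66, 7.26 and 7.41 against 6.87, 7.02, 6.90 and 6.88, without overlap (-0.52 ± 0.11, limma adjusted p = 0.026). The naive difference of Gpr17 was 0.03. Olig1, a transcription factor of the lineage, read 8.90, 8.83, 8.91 and 8.94 against 8.24, 8.72, 8.39 and 8.45 (-0.44 ± 0.09, limma adjusted p = 0.024). Tspan2 (-0.64 ± 0.10), a tetraspanin of myelin, and Gsn (-0.42 ± 0.08), the actin-severing protein gelsolin, picked after its values were seen, also fell. Gpr17 passed in 3 of the 8 fits (without C57BL/6 array 1 or 3 or array 2 labelled TNF knockout) and Olig1 in 3 (without C57BL/6 array 1 or 2 or array 2 labelled TNF knockout). Mal was lost without C57BL/6 array 4 and without array 1 or 4 labelled TNF knockout, with adjusted p up to 0.076. Gsn was lost without C57BL/6 array 4 and without array 1 labelled TNF knockout, with adjusted p up to 0.070.

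Of 17 endothelial markers 1 fell, where 0.271% of all genes did, and 16 lay below 0. The median was -0.17 after stroke and -0.01 in naive brain. With the KL82 arrays alone as the TNF knockout label, 0 of the 17 passed and the median was -0.15. Cldn5, the main claudin of the blood-brain barrier, read 7.65, 7.71, 7.45 and 7.91 against 7.28, 7.15, 7.15 and 7.0 (-0.53 ± 0.11, limma adjusted p = 0.040). The list mean was 7.43 to 7.61 in C57BL/6 brain and 7.33 to 7.34 in the arrays labelled TNF knockout, a very narrow spread. Outside the list, and named after their values were seen, Adgrl4 (-0.47 ± 0.08), an adhesion receptor of vessel sprouts, and Ramp2 (-0.48 ± 0.09), the partner of the adrenomedullin receptor, fell. The fatty acid receptor gene Cd36, picked likewise, fell by 0.53 on the log2 scale and read 3.88 to 4.40 against 3.36 to 3.74. Cldn5 passed in a single fit of 8, that without C57BL/6 array 3 (adjusted p up to 0.17 in the others). Cd36 passed in 3, without C57BL/6 array 1 or without array 2 or 4 labelled TNF knockout, and Ramp2 was lost without array 4 labelled TNF knockout (adjusted p = 0.059). Markers of pericytes, smooth muscle and fibroblasts had a median of 0.04, with 0 of 15 called.

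Of the microglial marker lists, only that of activated cells held called genes. Over all genes 0.436% passed. Of 13 homeostatic microglia markers 0 passed, 12 lay below 0 and the median was -0.21, against 0.08 in naive brain. Cx3cr1, the fractalkine receptor, read 7.65, 7.75, 7.75 and 7.76 against 7.34, 7.55, 7.47 and 7.58, which did not overlap (-0.24 ± 0.07, adjusted p = 0.18). Csf1r, the receptor that keeps microglia alive, differed by -0.37 (adjusted p = 0.10) and Gpr34 by -0.50 (adjusted p = 0.055). Without C57BL/6 array 4 the median of the list was -0.07. With the KL82 arrays alone as the TNF knockout label it was -0.10, and with array 1 (KL76) alone it was -0.44. Of 26 markers of activated microglia and macrophages 1 rose (Lpl, above) and 1 fell, with a median of -0.12. Cd68, a lysosomal protein of phagocytes, read 7.75, 7.82, 7.91 and 8.03 against 7.55, 7.45, 7.59 and 7.40 (-0.38 ± 0.08, limma adjusted p = 0.034), and its naive means were 6.79 and 6.90. Cd68 passed in 2 of the 8 fits, without C57BL/6 array 1 or without array 3 labelled TNF knockout. It did not pass with the KL82 arrays alone as the TNF knockout label. Gpr84, a receptor induced on activated microglia, differed by -0.65 ± 0.17 (adjusted p = 0.12).

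Of 18 complement genes 1 fell, where 0.271% of all genes did, with a median of -0.12. C1qc, a chain of the C1q molecule that microglia secrete and that starts the classical cascade, read 8.35, 8.36, 8.34 and 8.51 against 7.47, 7.75, 8.00 and 7.74 (-0.65 ± 0.11, limma adjusted p = 0.0057). It passed in all 8 fits. The other chains had the same direction without passing, C1qa at -0.41 (adjusted p = 0.10) and C1qb at -0.46 (adjusted p = 0.13).

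**Figure D4:**
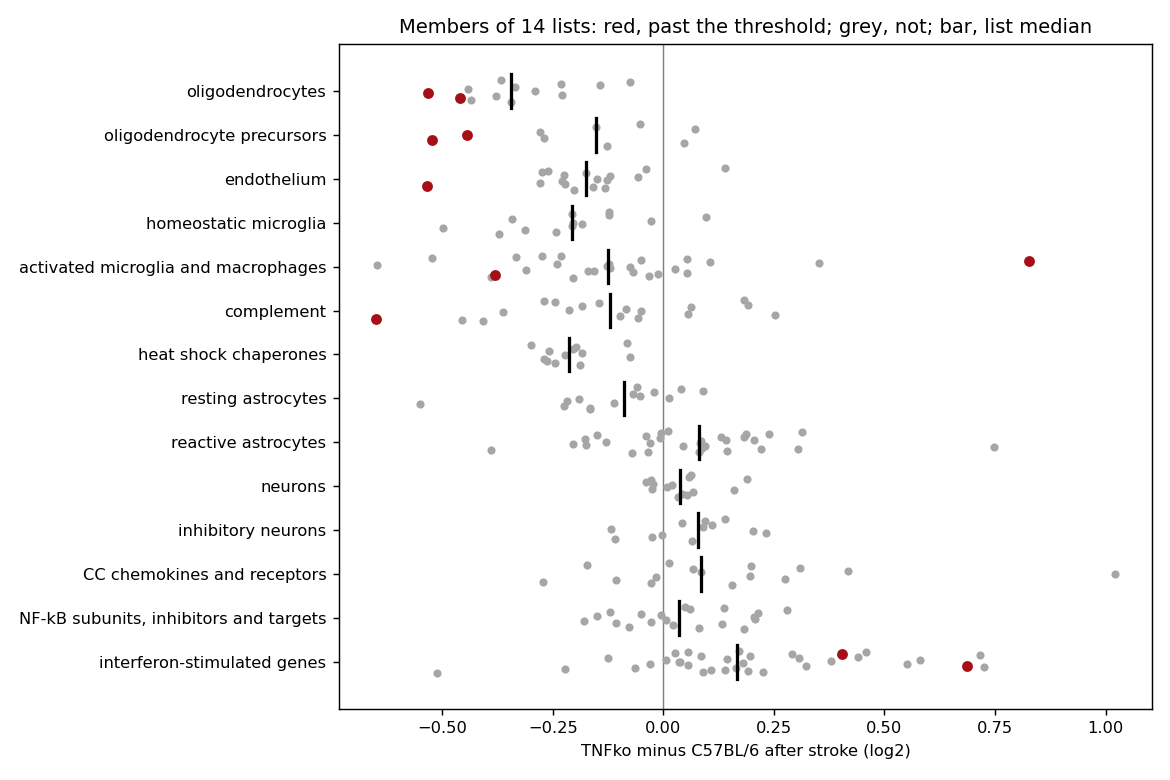
Difference between the labels after stroke (TNF knockout minus C57BL/6, log2, horizontal axis) for each tested member of 14 lists (rows); red points passed the test, grey points did not, and the black bar is the list's median. Of the 14 medians, the lowest is that of oligodendrocytes (-0.34) and the highest that of interferon-stimulated genes (0.17).

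**Figure D5:**
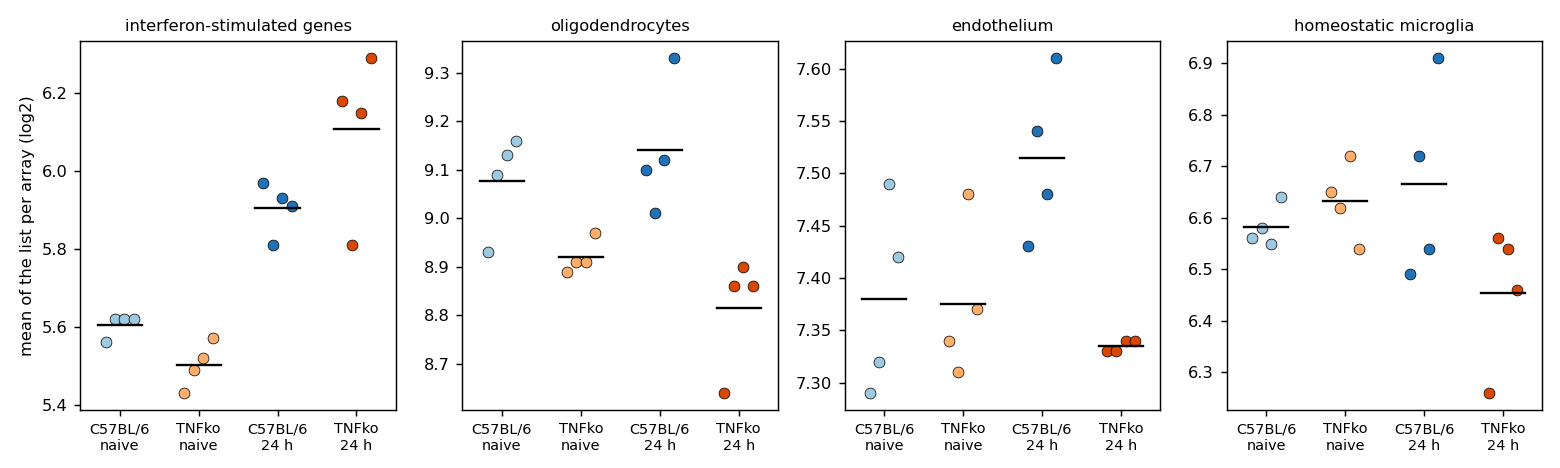
Mean log2 value of 4 lists in each array, 1 point per array with a bar at the group mean, for C57BL/6 and TNF knockout labels, naive and 24 h after stroke; the vertical axes differ and do not start at 0. The oligodendrocyte and endothelial means did not overlap after stroke, while the interferon-stimulated genes of array 2 labelled TNF knockout, at 5.81, lay with the C57BL/6 arrays.

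Most lists of other cell types and stress programmes held no called gene, where 0.436% of all genes passed. Short lists can hold 0 calls at that share. Neuron markers had a median of 0.04 (0 of 14 called) and list means of 10.20 to 10.26 against 10.21 to 10.32. Markers of neutrophils and monocytes had a median of 0.01 (0 of 19), with list means of 4.08 to 4.61 against 4.21 to 4.48. Reactive astrocyte genes had a median of 0.08 (0 of 30), and Gfap, the filament of reactive astrocytes, read 8.62, 9.10, 9.30 and 9.09 against 8.49, 9.19, 8.95 and 8.78. Resting astrocyte genes had a median of -0.09 (0 of 14). All 12 heat shock chaperones lay below 0 without any passing (median -0.21, -0.01 in naive brain), and the co-chaperone gene Dnajb1 differed by -0.27 ± 0.08 (adjusted p = 0.17). Of 17 genes of the major histocompatibility complex and antigen presentation 0 passed (median -0.06). Of 13 NADPH, glutathione and glyoxalase genes 1 rose (Glo1) and 1 fell (Nnt), of 18 cholesterol and lipoprotein genes 1 rose (Lpl), and of 26 matrix and wound genes 1 fell (Cthrc1). None of the remaining 19 lists, among them immediate early, hypoxia, cell death, synaptic, lymphocyte and choroid plexus genes, held a called gene, and their medians lay between -0.28 (red blood cells, 2 genes) and 0.10. The region markers Slc6a3 and Th, both of dopamine neurons of the midbrain, were low in C57BL/6 array 2, at 6.24 and 6.48, where the other C57BL/6 arrays read 7.31 to 7.93 and 7.21 to 7.28.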

How the data were processed

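RNA of whole mouse brain was isolated with Trizol, biotin-labelled and hybridised to Affymetrix Mouse Gene 1.0 ST arrays, per the labels' protocols. GCOS, GCRMA, Partek and RMA appear in the submitters' processing notes with neither a version nor the step they served. The deposited log2 values are used as the authors made them; array medians of 6.01 to 6.05 show that they were normalised between arrays. The table held 28944 probe sets, of which 21789 had 1 gene symbol in GEO's platform annotation, 1621 several and 5534 none. The probe set with the highest mean over 16 arrays stood for each of the 999 genes with more than 1. Depth has no meaning for arrays, whose number limits the precision.

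A model of 4 group means was fitted with limma 3.58.1 in R 4.3.3 (lmFit, eBayes), and two-sided p-values were adjusted over 19938 genes. Groups came from the titles, and no arrays held identical values. The script was tested on simulated data. Of 841 memberships in 27 gene and 18 marker lists, 762 matched. The comparison, members and lists were chosen with earlier results of these data known. Genes were named by rule: the 15 largest increases and decreases among called genes without overlap (unnamed gene models left out), up to 4 members of each list with the smallest p, and called neighbours of these. All other named genes, such as Cd36, Cd274, Gsn, Adgrl4 and Gdpd3, were chosen after their values were seen. Neighbours were taken by gene order, with at most 30 tested genes between them, in place of distance in bases, since no source used here gives the build of the array annotation. Figures were drawn with matplotlib 3.10.9 in Python 3.11.15. Other settings are given at the end.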

Additional observations from a re-analysis of the deposited data

Results flagged for a closer look

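A single array stood apart from the other 3 of its group in 16 of 250 pairs of a gene and a group, by a test of the gap to the nearest array against the range; chance marks about 1 in 20 groups. In the C57BL/6 arrays after stroke, array 2 was low for Tnf (5.28) and Th (6.48), array 4 was high for Cthrc1 (7.75), C1qc (8.51) and Gpr34 (5.02), and array 3 was high for Stat2 (7.38) and low for Galnt11 (7.79). Array 1 was high for Atraid (9.93) and Rsad2 (6.04) and low for Cx3cr1 (7.65). In the arrays labelled TNF knockout, array 1 was high for Gabra2 (8.82) and Coro6 (8.07) and low for Ece2 (7.72), Macrod2 (8.56) and Gdpd3 (4.43), and array 4 was high for Mx1 (3.89). The 3 other values of Ece2 agreed to 2 decimals, so its gap is 0.03.

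Probe sets with several gene symbols or none were left out of the comparison. Fitted with all 28944 probe sets, 41 of these 7155 passed the threshold after stroke, 18 higher and 23 lower.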

How the results depend on the processing

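No called gene reversed under any setting. The 87 genes called after stroke became 164 with the dimmest genes left out, 162 with trended and robust variances, 46 with only the groups compared, 49 with KL82 and 11 with KL76 arrays alone as the TNF knockout label, 36 at an adjusted p under 0.01 and 36 at 1.5-fold or more; leaving out 1 array gave 47 to 120. Tnf then differed by 1.18 with KL76 alone. The 77 naive calls became 185, 51, 7 (KL82), 21 (KL76), 20 and 24 under the same settings, trended and robust variances apart, and 23 to 138 with 1 array left out. Naive calls split 44 higher and 33 lower, but 31 and 38 after quantile normalization and 37 and 47 after median centring. The 0 calls for the difference of stroke changes became 4 with trended and robust variances (Adat2, Ifi202b, Irf7 and Oasl2), 1 with array weights (Ifi202b) and 0 to 3 with 1 array left out. The cause of these changes was not tested.

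Groups share replicate numbers, which no label says pair the arrays. Deviations of same-numbered arrays correlated at 0.259, 0.056, 0.107 and 0.102 after stroke and 0.085, 0.131, 0.046 and 0.086 in naive brain, all above 0. Arrays of different numbers gave -0.257 to 0.202 after stroke and -0.115 to 0.078 in naive brain. Not every array correlated best with its own number. The main model took no pairing, and whether the arrays were paired is not known. With the replicate number as a block, 120 genes passed after stroke, 141 in naive brain and 1 (Oasl2) for the difference of stroke changes. Of the uncalled genes named, Ccl12 (-0.03) ranged from -0.18 to 0.18 when single arrays were left out, above 0 without C57BL/6 array 2 (0.06) or 3 (0.18) or array 2 labelled TNF knockout (0.03), and Gdpd3 was -0.03 with KL76 alone. Signals near the low end of the scale, such as Ifi202b, carry no detection call here.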
